A study of Mus musculus with 3 samples.

Results

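RAW264.7 mouse macrophages that had received the tea-leaf strain Lactiplantibacillus plantarum LOC1 before LPS were compared with RAW264.7 macrophages given LPS alone, across the genes that a 1-colour Agilent mouse array could measure in both. The members were all genes with at least 1 non-control probe well above background on both arrays and not marked as an outlier spot, and 18177 of the 36818 gene names on the array met this. RAW264.7 is a macrophage-like cell line, and LPS is the cell wall component of Gram-negative bacteria that TLR4 recognises. The LPS group was 1 array of macrophages without lactobacilli that were stimulated with LPS for 3 h. The LOC1 group was 1 array of macrophages that met the strain for 12 h by the labels (the methods give a longer time) and then LPS for 3 h. A further array, of macrophages given the strain LOC3 in the same way, is used here only for values beside those of LOC1. Intensities of unchallenged control macrophages are not used here. With 1 array of 1 culture a side there is no test, SD or p-value between conditions, and a difference describes these 2 arrays.

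TLR4 signals through MyD88 and TRIF, which switch on NF-kB and MAP kinases and, later, interferon beta and the genes that interferons induce. Negative regulators such as the zinc finger protein A20, the dual-specificity phosphatases and the SOCS proteins end the response, and macrophages also change their lipid mediators, their sterol synthesis and their cell cycle after a bacterial stimulus. Cells that met bacterial products before LPS often give a different response from cells that did not, with some genes weaker and others stronger. The cytokines, chemokines, surface molecules and interferon genes that the study itself describes are left aside below, and the other gene classes are described.

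Intensities were taken relative to the 75th percentile of each array, 555 for LPS and 513 for LOC1, with the log2 of this ratio called the level of a gene, and all differences below are log2 values of LOC1 minus LPS on this scale. Between 52.4% and 53.8% of non-control spots were well above background on these 2 arrays, no spot was saturated, and both arrays lay on the same slide and scan. Probes printed several times gave a technical SD of a difference of 0.056 for 269 bright probes and 0.29 for 12 dim ones, which covers spot noise and not the spread between cultures. All 10 macrophage markers were well above background on both arrays, among them Lyz2, Csf1r and Cd68. Of the other lists, epithelial markers were above background for 1 of 6 genes with LPS (Epcam, at an intensity of 20.7) and 0 of 6 with LOC1, B cell markers for 2 of 5, fibroblast markers for 4 of 5 and endothelial markers for 3 of 4 on both arrays, with no marker of these lists above an intensity of 81.8 with LPS. Their summed intensities with LPS and LOC1 were 46.6 and 23.6 for epithelial, 92.2 and 109 for B cell, 215 and 133 for fibroblast and 144 and 161 for endothelial markers. The T cell list was above background for 3 of the 5 genes on the array, with a summed intensity of 4385 with LPS and 6095 with LOC1. Lck accounted for most of that sum, with 3086 and 4935, and Cd3g and Cd8a were not well above background on either array. The part of these markers in the results was not tested.

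In all, 335 genes (1.84% of those compared) were at least 2-fold higher and 510 genes (2.81%) at least 2-fold lower with LOC1. The middle of the distribution was narrow, with quartiles at -0.24 and 0.23 and a median of 0.01. At least 4-fold differences were found for 45 genes higher and 43 lower. Which direction had more genes depended on the scaling: with each array's median in place of the 75th percentile the median difference of all genes moved to 0.23, and 652 genes were higher and 288 lower. Quantile normalization gave 403 higher and 413 lower, and normexp background correction 175 and 180. The log2 ratios that the authors deposited gave 182 and 168, but over 3186 genes only, so the set of genes differs there as well as the scaling. Gene lists are therefore described relative to the median of all genes, which a shift of a whole array leaves as it is. The share of genes past 2-fold was 9.28% among genes with a mean level between -4 and -2 and 2.19% among genes above 2, so dim genes are overrepresented. Of the 845 genes past 2-fold, 23 are among the 64 compared names that the study describes. For 162 of the 845 several probes were compared, and in 137 of these all probes lay on the same side of 0.

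**Figure D1:**
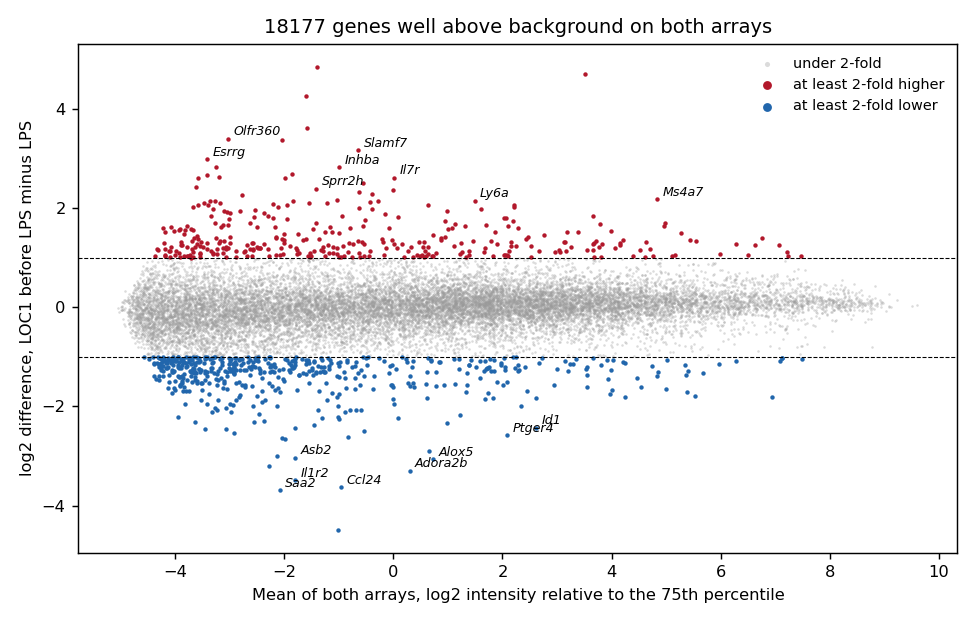
Difference (LOC1 before LPS minus LPS, log2) of each compared gene against its mean level on both arrays, with dashed lines at 2-fold and 1 array per condition. Red points are the 335 genes at least 2-fold higher and blue points the 510 at least 2-fold lower, and the blue points gather at low levels on the left.

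The largest difference of all belonged to an uncharacterised transcript, 4930438A08Rik, which was chosen for mention after its value was seen. Its signal (intensity) was 39.4 with LPS and 1043 with LOC1, a log2 difference of 4.84, and it was 701 with LOC3. On the higher side, among annotated genes outside the study's own names, Olfr360, an olfactory receptor gene, led with a signal of 21.0 with LPS and 204 with LOC1 (3.39). Slamf7, a receptor of the SLAM family found on macrophages and lymphocytes, had 118 with LPS and 983 with LOC1 (3.17), and its probe lies on chromosome 1 at 173569299 to 173569358 of mm9. These 3 were low with LPS and far higher with LOC1. The LPS signal of Olfr360 was near 16.3, the lowest signal well above background on that array.

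Of the other leading genes on the higher side, several encode secreted or membrane proteins. Inhba, which encodes the subunit of activin A, had a signal of 105 with LPS and 685 with LOC1 (2.82, probe on chromosome 13 at 16118634 to 16118693 of mm9). The receptor chain for IL-7, Il7r, had 227 and 1281 (2.61). Ly6a, the stem cell antigen Sca-1 that interferon also induces, had 741 and 3032 (2.14). Ms4a7, a membrane protein of macrophages, had a signal of 7481 with LPS and 31202 with LOC1 (2.17).

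Several of the others act in lipid handling, G protein signalling or transcription. Fabp4, a fatty acid-binding protein of adipocytes and macrophages, had 161 with LPS and 747 with LOC1 (2.33), and Osbp2, an oxysterol-binding protein, had 196 and 794 (2.13). Rgs1, which shortens signalling from G protein-coupled receptors, had 193 and 869 (2.29). Gfi1b, a transcriptional repressor of blood cell development, had 37.1 and 166 (2.27), the zinc finger factor St18 had 128 and 531 (2.17), and the orphan nuclear receptor Esrrg had 18.5 and 135 (2.98). The remaining members were Sprr2h (2.38), a small proline-rich protein of the cornified envelope, the mitochondrial aldehyde dehydrogenase Aldh1b1 (2.15) and the gamma-tubulin gene Tubg2 (2.14).

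On the lower side, receptors and enzymes of lipid mediators stood beside acute phase and decoy genes. Saa2, an acute phase apolipoprotein, led with -3.69, followed by the eotaxin gene Ccl24 with -3.63 and the IL-1 decoy receptor Il1r2 with -3.49. Adora2b, the low-affinity adenosine receptor, had a signal of 2134 with LPS and 202 with LOC1 (-3.29, probe on chromosome 11 at 62079096 to 62079155 of mm9). Alox5, the 5-lipoxygenase that starts leukotriene synthesis, had 2667 with LPS and 295 with LOC1 (-3.06, chromosome 6 at 116360326 to 116360385 of mm9). Ptger4, a receptor for prostaglandin E2, had 5749 and 889 (-2.58), and its 2 probes gave -2.84 and -2.58.

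Id1, an inhibitor of helix-loop-helix transcription factors, had the highest LPS intensity of the 15 lower genes, at 7879, against 1353 with LOC1 (-2.43). Pi16, a peptidase inhibitor, had 2373 and 294 (-2.90), the urea transporter Slc14a1 had 901 and 148 (-2.49), and the kinase gene Dmpk had 770 and 117 (-2.61). Asb2, which recruits substrates to a ubiquitin ligase, had 458 and 51.7 (-3.03). Ctnnal1, Ppbp, Pcsk2 and the pseudogene Speer5-ps1 lay between -2.99 and -2.44, each from an LPS intensity between 337 and 370. All 30 genes stayed past 2-fold in the same direction with median scaling, quantile normalization, normexp and the mean of the compared probes. Some differences were smaller with normexp, such as Olfr360 (1.64), Esrrg (1.46), Gfi1b (1.23) and Saa2 (-2.29). With normexp Slamf7 (2.62) had the largest difference of the higher genes and Adora2b (-2.94) that of the lower ones.

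**Figure D2:**
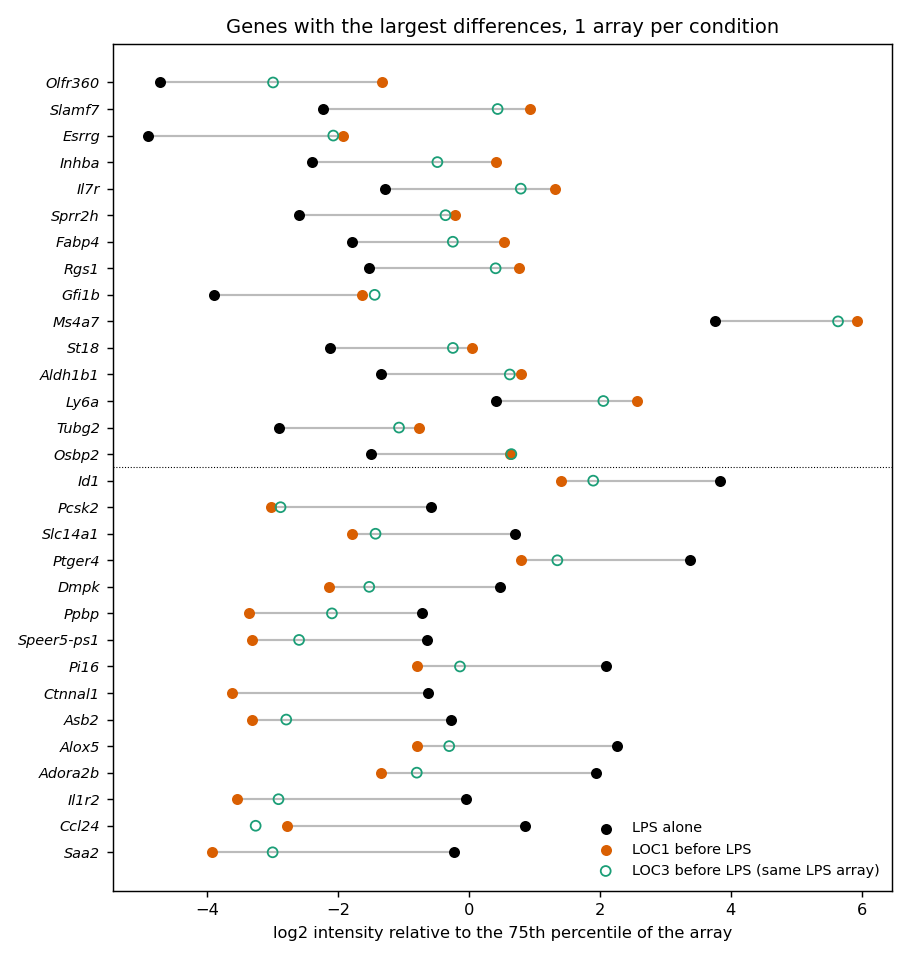
Level (log2 intensity relative to the 75th percentile of its array) of the 15 genes with the largest higher and the 15 with the largest lower difference, with LPS alone (black), LOC1 before LPS (orange) and LOC3 before LPS (open green, drawn where well above background). The LOC1 points lie between 2.13 and 3.39 to the right of the LPS points in the upper block and between 2.43 and 3.69 to the left in the lower block, and every drawn LOC3 point lies on the same side of LPS as LOC1.

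LOC3 is compared with the same LPS array, so its values are not independent of those of LOC1. Its difference from LPS was 2.66 for Slamf7, 1.92 for Inhba, -2.74 for Adora2b and -2.57 for Alox5. Gfi1b was higher with LOC3, with a difference of 2.46, and Ccl24 lower, with -4.11. Ctnnal1 was not well above background on the LOC3 array. The deposited ratios are relative to a common reference and left blank under 2-fold. In its methods the study sets its LPS groups against control macrophages without LPS. In the deposited ratios Slamf7 has 3.47 with LPS and 6.67 with LOC1, and Ly6a has 2.87 and 5.05.

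The gene lists held 742 different genes in 29 classes, of which 667 could be compared. Past 2-fold were 23 of these higher and 44 lower, beside 335 (1.84%) and 510 (2.81%) of all 18177 genes. The lists were chosen with earlier results of these data known, so these counts cannot be read as an excess. The list medians ran from 1.09 below the median of all genes, for sterol synthesis, to 0.34 above it, for interferon-stimulated genes.

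**Figure D3:**
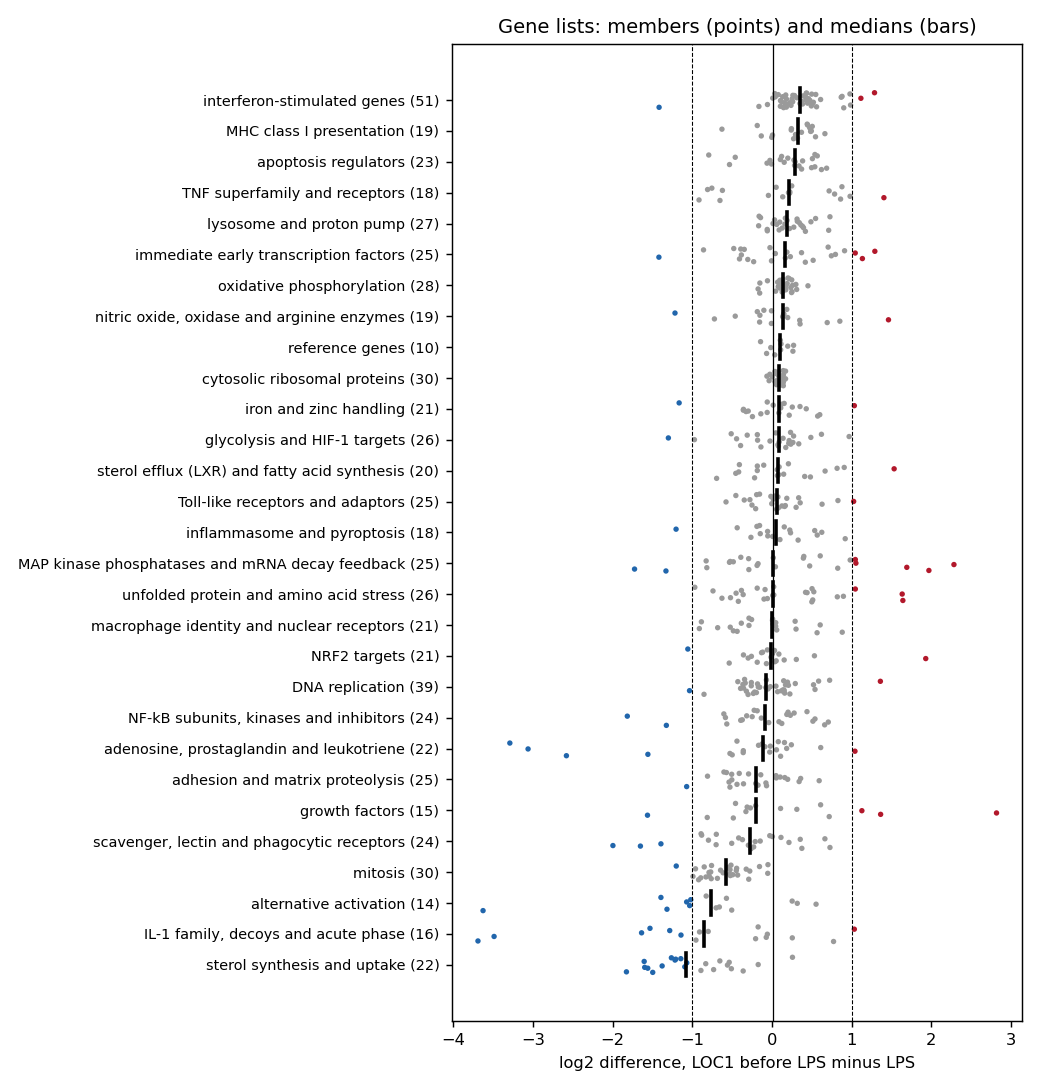
Differences (LOC1 before LPS minus LPS, log2) of the compared members of each list, with the number of members in brackets, the list median as a black bar, dashed lines at 2-fold and the median of all genes as a thin line. The sterol, acute phase, alternative activation and mitosis lists lie to the left, while no list median lies more than 0.34 to the right of all genes.

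Sterol synthesis had the lowest median of the 29 lists. Cholesterol is made from acetyl-CoA through mevalonate, isoprenoids and squalene to lanosterol and then to cholesterol, and the genes of this pathway are induced together by the transcription factor SREBP-2 when sterols are low. Of 25 genes, 22 could be compared. At least 2-fold lower were 12 of these and higher 0, and 21 of the 22 lay below the median of all genes. The median of the list was 1.09 below that of all genes.

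At the start of the pathway, Hmgcs1, which makes HMG-CoA, had a signal of 22613 with LPS and 6878 with LOC1 (-1.60). Of the mevalonate enzymes, Mvd had 1612 and 420 (-1.83), the largest difference of the list, while Pmvk had 8054 and 3370 (-1.14) and Mvk 4861 and 3099.7 (-0.54). The isomerase Idi1 had 13699.5 and 5281 (-1.26), and squalene synthase Fdft1 had 9809.9 and 3927 (-1.21). Fdps, which makes farnesyl diphosphate, had 33025 and 20739 (-0.56), and the squalene epoxidase Sqle had 26283 and 13102 (-0.89).

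Beyond squalene epoxide, 6 of the 9 compared enzymes were past 2-fold. Lanosterol synthase Lss had 3951 with LPS and 1572 with LOC1 (-1.22), and the demethylase Cyp51 had 3946 and 1293 (-1.50). Msmo1, Nsdhl and Hsd17b7, which remove the methyl groups at carbon C4 of the sterol ring, had 25558 and 9089 (-1.38), 933 and 293 (-1.56), and 11295 and 3452 (-1.60). Dhcr7, which makes cholesterol, had 445 and 196 (-1.07). Ebp (-0.51) and Sc5d (-0.17, with another probe at -1.66) differed less, and the reductase Tm7sf2 was the exception, with 1541 and 1704 (0.26).

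Genes of sterol transport and control were on the same side. Insig1, which holds SREBP in the endoplasmic reticulum, had 826 with LPS and 430 with LOC1 (-0.83). Srebf2, which encodes SREBP-2, had 3209 and 1886 (-0.65). Stard4, a sterol carrier, was past 2-fold with 1472 and 637 (-1.09). With median scaling 8 of the 22 genes stayed at least 2-fold lower. With LOC3, Hmgcs1 differed from the same LPS array by -1.22, Mvd by -1.58 and Cyp51 by -1.32.

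**Figure D4:**
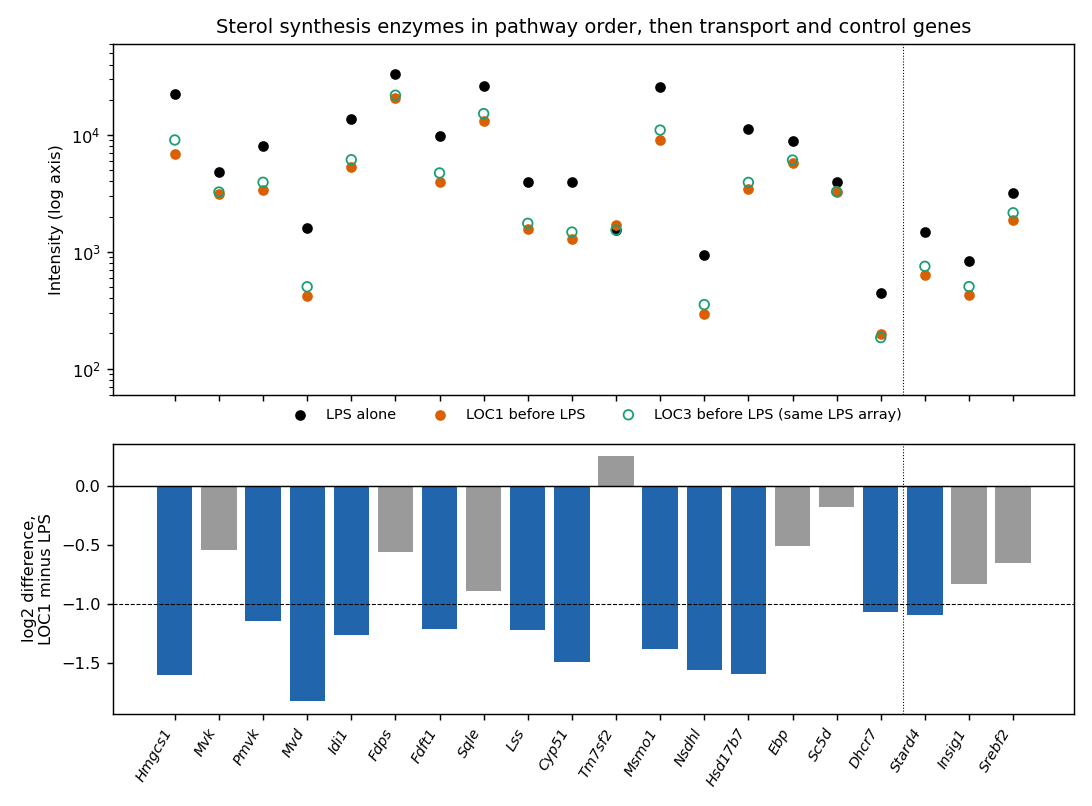
Intensity (upper panel, log axis) with LPS alone (black), LOC1 before LPS (orange) and LOC3 before LPS (open green), and difference of LOC1 from LPS (lower panel, log2) for sterol synthesis enzymes in pathway order and, right of the dotted line, transport and control genes. Blue bars mark the 12 genes at least 2-fold lower, which are Stard4 and enzymes spread along the pathway from Hmgcs1 to Dhcr7, and of the genes plotted only Tm7sf2 has a bar that points up.

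The promoters of this list are shown because its genes are lower together. Promoters of 300 bases (250 before the start of transcription to 50 after it) come from RefSeq on build GRCm38.p6, and 16 of the 22 genes have 19 entries in this table. The letters searched on both strands were CCAAT, the box bound by NF-Y, and TCACNCCAC, the core of the sterol regulatory element. CCAAT was in 16 of 19 promoters of the list (84.2%) and in 37.9% of the 13860 promoters of all compared genes. TCACNCCAC was in 1 of the 19 and in 1.17% of all. Capitals mark both kinds of match in the promoter of Hmgcs1 at chr13:119690101-119690400 on the plus strand, and CCAAT matches in those of Mvd at chr8:122443373-122443672 on the minus strand and Nsdhl at chrX:72918271-72918570 on the plus strand. The sterol element of Hmgcs1 starts 137 bases before the start of transcription.
Hmgcs1: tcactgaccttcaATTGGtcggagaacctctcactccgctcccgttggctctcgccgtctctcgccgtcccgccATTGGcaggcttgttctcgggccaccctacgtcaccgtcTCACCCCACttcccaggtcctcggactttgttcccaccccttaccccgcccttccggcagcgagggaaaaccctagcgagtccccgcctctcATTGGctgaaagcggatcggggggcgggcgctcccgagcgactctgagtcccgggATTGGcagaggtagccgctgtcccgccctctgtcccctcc
Mvd: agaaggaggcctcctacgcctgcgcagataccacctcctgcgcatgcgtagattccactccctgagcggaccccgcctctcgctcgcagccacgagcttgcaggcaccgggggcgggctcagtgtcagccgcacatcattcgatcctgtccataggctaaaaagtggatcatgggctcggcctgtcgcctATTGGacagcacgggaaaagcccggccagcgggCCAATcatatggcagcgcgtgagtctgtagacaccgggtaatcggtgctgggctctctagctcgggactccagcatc
Nsdhl: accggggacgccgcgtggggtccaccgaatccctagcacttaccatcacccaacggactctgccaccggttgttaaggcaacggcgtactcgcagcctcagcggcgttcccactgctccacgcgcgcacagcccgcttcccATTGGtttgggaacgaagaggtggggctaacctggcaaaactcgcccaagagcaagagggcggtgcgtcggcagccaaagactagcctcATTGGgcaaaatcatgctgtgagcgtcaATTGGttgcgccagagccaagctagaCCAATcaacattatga

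The other side of sterol metabolism, efflux through the nuclear receptor LXR and fatty acid synthesis, had a median near that of all genes (0.07 above), with 1 of 20 genes past 2-fold higher and 0 lower. That gene was Abcg1, which exports cholesterol to HDL, with 5162 with LPS and 13827 with LOC1 (1.53). Abca1, the other exporter of the list, had 1748 and 999 (-0.69), and Mylip, an LXR target that encodes a ubiquitin ligase, had 1064 and 1735 (0.82). The fatty acid enzymes Fasn (-0.42), Acly (-0.10) and Acaca (0.09) lay on both sides of 0.

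All 30 mitosis genes lay below the median of all genes, and the list median was 0.59 below it, although only Kif11 was past 2-fold. Kif11, the motor that separates the spindle poles, had 348 with LPS and 140.0 with LOC1 (-1.20). Nuf2, a kinetochore subunit, had 2426 and 1128 (-0.99), cyclin B1 (Ccnb1) had 5177 and 2462 (-0.96), and the kinase Aurka had 12669 and 6188 (-0.92). Birc5 (survivin) had 19035 and 10202 (-0.79), and the proliferation marker Mki67 had 13953 and 8935 (-0.53). Ndc80 and Cenpe, at -0.05, were the members nearest to 0. With median scaling and with normexp 0 genes of this list were past 2-fold. In bulk RNA, fewer dividing cells and less RNA per dividing cell cannot be told apart.

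DNA replication genes did not move as far: the list median was 0.08 below that of all genes, with 22 of 39 genes below it. Past 2-fold were 1 gene lower and 1 higher, and with median scaling and with normexp 0 were lower. Tk1, thymidine kinase, had 1725 with LPS and 779 with LOC1 (-1.03), and Rrm2, of ribonucleotide reductase, had 3860.0 and 1976 (-0.85). Cdt1, which loads the MCM helicase, was higher with 6359 and 15111 (1.36), and Rfc3, of the clamp loader, had 1398 and 2136 (0.72). The helicase subunits themselves ran from -0.34 for Mcm5 and Mcm7 to 0.15 for Mcm2. Among them Mcm6 had 22338 and 19971 (-0.05), and Pcna, the sliding clamp, had 19792 and 21134 (0.21).

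**Figure D5:**
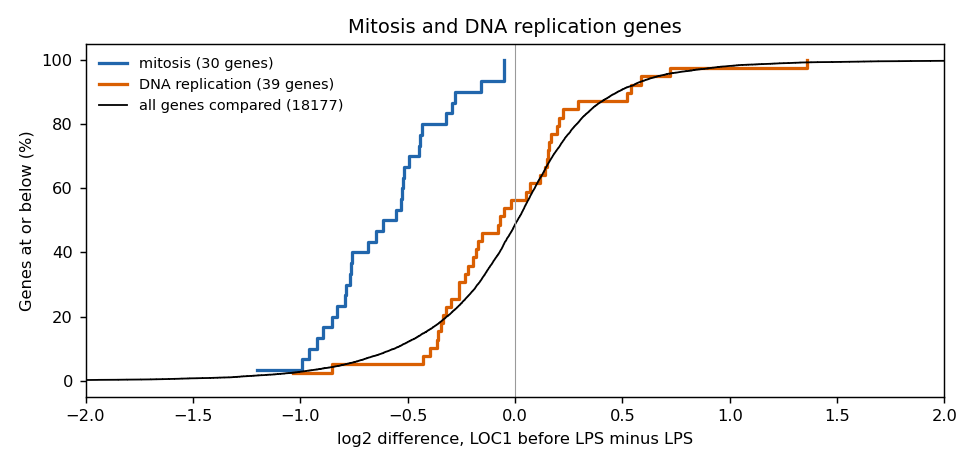
Cumulative share of genes at or below each difference (LOC1 before LPS minus LPS, log2, drawn from -2 to 2) for the 30 mitosis genes (blue), the 39 DNA replication genes (orange) and all 18177 compared genes (black). The blue curve lies left of 0 throughout, from -1.20 to -0.05, while the orange curve crosses the black one near the middle.

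The promoters of 24 mitosis genes are in the RefSeq table, with 25 entries, and CCAAT was in 84% of them, a share like that of the sterol list. TCACNCCAC was in none of the 25. Kif11 is shown because it alone was past 2-fold (chr19:37376132-37376431, plus strand), and Ccnb1 (chr13:100786437-100786736, minus strand) because both its matches lie close together. Capitals mark CCAAT on either strand.
Kif11: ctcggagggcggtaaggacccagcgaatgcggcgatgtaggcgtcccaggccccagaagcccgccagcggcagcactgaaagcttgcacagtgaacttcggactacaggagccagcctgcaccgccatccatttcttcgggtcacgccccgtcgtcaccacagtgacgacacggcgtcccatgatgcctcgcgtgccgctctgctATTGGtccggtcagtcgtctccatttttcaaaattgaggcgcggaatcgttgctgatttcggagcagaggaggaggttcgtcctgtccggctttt
Ccnb1: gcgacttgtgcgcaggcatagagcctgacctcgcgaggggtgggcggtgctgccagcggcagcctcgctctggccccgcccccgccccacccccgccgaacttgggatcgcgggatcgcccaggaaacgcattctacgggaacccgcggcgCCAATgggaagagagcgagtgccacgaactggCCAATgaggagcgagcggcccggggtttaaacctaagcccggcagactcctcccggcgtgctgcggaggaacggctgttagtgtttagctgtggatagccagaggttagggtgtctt

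Interferon-stimulated genes other than those the study names ran from -1.42 to 1.29. Of 51 compared genes, 47 lay above the median of all genes and the list median was 0.34 above it, while 2 were at least 2-fold higher and 1 lower. Cmpk2, a mitochondrial nucleotide kinase next to viperin, had 56135 with LPS and 112600.0 with LOC1 (1.12), and Iigp1, an immunity-related GTPase, had 4527 and 10222 (1.29, with its lowest probe at -0.18). Ifi27 was the exception, with 19911 and 6896 (-1.42).

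Many members of this list differed by less than 2-fold. Isg15, the ubiquitin-like modifier, had 162916 with LPS and 209056 with LOC1 (0.47), Rsad2 (viperin) had 137417 and 186112 (0.55), and Ifi204, a DNA sensor, had 141338 and 159074 (0.28). Irf7, which amplifies type I interferon, had 129038 and 163951 (0.46). The antiviral GTPase Mx1 (0.87), Ifit2 (0.88), the tetherin gene Bst2 (0.90), Zbp1 (0.98) and Herc6 (0.99) came close to 2-fold. The transducers Stat2 (0.17) and Irf9 (-0.06) and the sensors Ifih1 (0.43) and Ddx58 (0.19) differed less. With median scaling 7 genes were past 2-fold higher, and with the mean of the compared probes 1.

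GAAANNGAA, the core of the interferon-stimulated response element, was in 25 of the 46 promoters of this list (54.3%) and in 7.55% of the promoters of all compared genes. Isg15 (chr4:156200769-156201068, minus strand) and Ifit1 (chr19:34640639-34640938, plus strand) are shown because both hold 3 matches, and Bst2 (chr8:71537423-71537722, minus strand) because it had a larger difference with 2 matches. Overlapping matches are merged in the capitals.
Isg15: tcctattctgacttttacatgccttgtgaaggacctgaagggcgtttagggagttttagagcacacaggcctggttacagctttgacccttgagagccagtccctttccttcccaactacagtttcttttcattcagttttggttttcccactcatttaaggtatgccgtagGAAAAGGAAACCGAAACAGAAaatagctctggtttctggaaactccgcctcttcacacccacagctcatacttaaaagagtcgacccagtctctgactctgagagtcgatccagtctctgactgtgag
Ifit1: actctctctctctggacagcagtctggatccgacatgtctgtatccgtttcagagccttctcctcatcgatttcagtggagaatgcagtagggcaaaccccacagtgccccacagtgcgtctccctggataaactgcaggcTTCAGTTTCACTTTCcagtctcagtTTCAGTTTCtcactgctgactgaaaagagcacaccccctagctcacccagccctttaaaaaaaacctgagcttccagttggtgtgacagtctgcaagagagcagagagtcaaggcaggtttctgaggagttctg
Bst2: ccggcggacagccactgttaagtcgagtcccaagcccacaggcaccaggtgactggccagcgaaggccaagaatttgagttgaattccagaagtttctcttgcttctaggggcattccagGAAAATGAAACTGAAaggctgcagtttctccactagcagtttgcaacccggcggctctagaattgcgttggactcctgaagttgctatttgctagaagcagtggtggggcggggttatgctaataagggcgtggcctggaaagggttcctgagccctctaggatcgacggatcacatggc

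Class I presentation, which interferons also induce, lay 0.31 above the median of all genes with 0 of 19 genes past 2-fold. H2-T23 (0.66), H2-D1 (0.49), the peptide editor Tapbp (0.49) and the transporter Tap2 (0.45) were on the higher side, and the immunoproteasome subunits Psmb8, Psmb9 and Psmb10 had 0.37, 0.32 and 0.51. Calr, the chaperone calreticulin, had the lowest value, with 14051 with LPS and 8410.0 with LOC1 (-0.63).

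The IL-1 family and acute phase list was 0.87 below the median of all genes, with 6 of 16 genes at least 2-fold lower and 1 higher. Il1rl1, the receptor for IL-33, had a signal of 534 with LPS and 159 with LOC1 (-1.64), and Il18rap, a chain of the IL-18 receptor, had 129 and 41.2 (-1.53). Il1f9, which encodes IL-36 gamma, had 184 and 70.1 (-1.28), and Il1f6, for IL-36 alpha, had 2185 and 1043 (-0.95). Among the serum amyloid genes, Saa1 had 51796 and 21709 (-1.14) and Saa3 had 320239 and 170092 (-0.80).

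Some members of this list did not follow. Lcn2, the siderophore-binding lipocalin, was higher with 68833 with LPS and 130398 with LOC1 (1.03), and complement C3 had 72762 and 115045 (0.77), whereas complement factor B (Cfb) had 2847 and 1402 (-0.91). The receptor antagonist Il1rn had -0.21 and Il1a -0.06. Saa1 and Saa2 are near-identical copies, and whether their probes tell them apart was not tested.

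Of 22 compared adenosine and eicosanoid genes, 4 were lower and 1 higher past 2-fold, and the list median was 0.12 below that of all genes. Besides Adora2b, Alox5 and Ptger4, Ptgs1, the constitutive cyclooxygenase, had 7283 with LPS and 2288 with LOC1 (-1.56). The inducible cyclooxygenase Ptgs2 had 16461 and 18028 (0.24), and the synthase Ptges that follows it had 13862 and 12641 (-0.02). Pla2g4a, which frees arachidonic acid, had 12862 and 10915 (-0.12). Alox5ap (-0.50), Ltc4s (-0.53) and Lta4h (0.08), the partners of Alox5, differed less than Alox5 did. Of the other prostaglandin receptors, Ptger2 had 0.06 and Ptgir 0.18, and Adora2a had a signal of 36.3 with LPS and 26.1 with LOC1. Hpgds, the prostaglandin D synthase, was past 2-fold higher, from 21.2 to 40.3, at the lower end of the measurable range. With normexp 0 genes of the list were past 2-fold higher.

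Genes of alternative activation, the state that IL-4 and IL-13 induce, were 0.78 below the median of all genes. Of 14 compared, 6 were at least 2-fold lower and 0 higher, and 3 were lower with median scaling and with normexp. After Ccl24, the lectin receptor Clec7a (dectin-1) had 622 with LPS and 219 with LOC1 (-1.39), the folate receptor Folr2 had 80.3 and 29.8 (-1.32), and the elastase Mmp12 had 26123 and 11501 (-1.07). Il4ra, the IL-4 receptor chain, had 5252 and 2396 (-1.02, with its highest probe at -0.096), and Irf4 had 113 and 51.1 (-1.03). Mgl2 (-0.83) and Clec10a (-0.66), lectins of this state, and the scavenger receptor Msr1 (-0.70) were lower by less, and Chil3 (0.25) was not. Arg1, Retnla and Mrc1 could not be compared, since their signal on 1 or both arrays was too close to background.

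Scavenger, lectin and Fc receptors lay 0.29 below the median of all genes, with 3 of 24 past 2-fold lower and 0 higher. Fcgr3, the low-affinity activating IgG receptor, had 31223 with LPS and 9191 with LOC1 (-1.65), and its inhibitory counterpart Fcgr2b had 37029 and 19708 (-0.80). Treml4 had 253 and 58.7 (3.99-fold lower), and Clec7a is shared with the previous list. Marco had 142337 and 170787 (0.38), and Clec4e (mincle) 120117 and 96016 (-0.21). Adhesion molecules and proteases were 0.22 below all genes, with Mmp12 alone of 25 compared genes past 2-fold, and with median scaling 0 genes. Vcam1, well above background with LPS only, was at least 5.08-fold lower with LOC1. In that list the integrin chains Itgal (-0.81), Itgav (-0.57), Itgam (-0.54) and Itga4 (-0.50) were on the lower side and Itgb7 (0.59) on the higher, while Spp1 (0.05) and Adam8 (0.16) lay near 0.

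Toll-like receptors and their adaptors were 0.05 above all genes, and 1 of 25 was past 2-fold. This was Tlr3, the receptor for double-stranded RNA, with 544 with LPS and 1024 with LOC1 (1.03). With normexp and with the mean of the compared probes 0 genes of this list were past 2-fold. With that mean the list median was at -0.017 from all genes. Myd88 had 23217 and 24438 (0.19) and Ticam1, which encodes TRIF, had 1108 and 1079.7 (0.07). The LPS co-receptors Cd14 and Ly96 had 0.06 and -0.58, and Tlr2 had 47441 and 32047 (-0.45). Of the later adaptors, Ripk2 (0.83) and Nod1 (0.63) had the next largest values.

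NF-kB subunits and their inhibitors had a median 0.10 below all genes and 2 of 24 genes past 2-fold lower, both inhibitors or modulators. Tnip3, which binds A20, had 19841 with LPS and 5211 with LOC1 (-1.82), and the atypical inhibitor Bcl3 had 45038 and 16616 (-1.33). Tnfaip3, which encodes A20 itself, had 29619 and 18021 (-0.60), while the classical inhibitor Nfkbia had 130338 and 117246 (-0.04) and Nfkbie had 6036 and 8831 (0.66). Subunits went both ways, with Relb at -0.58 and Nfkb1 at -0.19 against Rela at 0.44 and Rel at 0.51. Traf1 had the highest value, with 38528 and 58191 (0.71). Of the 18 compared genes of the TNF family only the receptor Tnfrsf26 was past 2-fold, with 76.7 and 188 (1.41). Tnfsf15 had 0.98, Tnfsf12 -0.92, Tnfsf9 0.88 and Tnfrsf9 -0.75. Tnfsf14 and Tnfsf18, well above background on 1 array only, were at least 11.8-fold lower and at least 2.64-fold higher with LOC1. With median scaling 5 genes of the TNF family were past 2-fold higher, and with normexp 0.

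Feedback regulators were among the lists with the widest spread, from -1.73 to 2.29, around a median 0.01 above that of all genes. Of 25 genes, 5 were past 2-fold higher and 2 lower. After Rgs1, Rgs2, another GTPase activator, had 856 with LPS and 3102 with LOC1 (1.97), and Dusp10, a phosphatase of JNK and p38, had 115 and 344 (1.69). The Ras pathway inhibitor Spry2 had 1005 and 1930.3 (1.05) and the pseudokinase Trib3 34874 and 66642 (1.05). The related Trib1 was lower, with 3364 and 941 (-1.73), but its probes disagreed, from -2.21 to 0.69. Cish had 2234 and 821 (-1.33), and its relative Socs3 had 98815 and 51544 (-0.83). Dusp1 (-0.52) and Zfp36 (-0.49), early brakes on MAP kinases and on cytokine mRNA, were lower by less, and Dusp4 (0.98) and Irak3 (0.83) were higher by less than 2-fold.

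Among immediate early transcription factors, 3 of 25 were past 2-fold higher and 1 lower. Egr1 had 2388 with LPS and 4852 with LOC1 (1.14), Nr4a1 had 1627 and 3107 (1.05), and Fosl1 had 88.9 and 201 (1.29). Fosl2, of the same family as Fosl1, was lower with 2731 and 944 (-1.42). Fos (-0.38) and Jun (-0.23) were on the lower side, and Junb had 107892 and 113664 (0.19).

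In the unfolded protein and amino acid stress list 3 of 26 genes were past 2-fold higher and 0 lower, and these 3 belong to the integrated stress response. Ddit3, which encodes CHOP, had 782 with LPS and 2259 with LOC1 (1.64, with its lowest probe at 0.10), Ppp1r15a, the GADD34 phosphatase subunit, had 9754 and 28024 (1.64), and Trib3, a CHOP target, is shared with the feedback list. The amino acid genes Asns (0.50), Psat1 (0.51), Chac1 (0.50) and Sesn2 (0.90) were on the same side, as was Atf4 (0.42). The chaperone Hspa5 (BiP) had 161688 and 150523 (0.01), while Dnajc3 (-0.97), Calr (-0.63) and Pdia4 (-0.52) were lower by less than 2-fold. The list median equalled that of all genes to within 0.01.

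Of 15 compared growth factor genes, 3 were past 2-fold higher and 1 lower, and the list median was 0.22 below all genes. With Inhba, Bmp2 had 109 with LPS and 260.4 with LOC1 (1.36) and Gdf15 had 1628 and 3294 (1.13), all 3 of the TGF-beta superfamily. Pdgfa had 3853 and 1206 (-1.56). Tgfb1 had 2266 and 1671 (-0.33), Pdgfb 30544 and 24508 (-0.21), and Igf1 9681 and 7216 (-0.31).

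Enzymes of nitric oxide, oxidase and arginine metabolism had a median 0.12 above all genes, which turned to -0.044 with the mean of the compared probes. Nos2, the inducible nitric oxide synthase, had 19696 with LPS and 32895 with LOC1 (0.85), and Gch1, which makes its cofactor, had 35069 and 52461 (0.69). Sat1, which breaks down polyamines, was past 2-fold higher with 2274 and 5798 (1.46), and Hdc, the histamine enzyme, lower with 2821 and 1122 (-1.22). The oxidase subunits Ncf1 (-0.72) and Cybb (0.13) differed in direction. Among NRF2 targets, Gsta3 had 33.1 and 117 (1.93) and Gstm1 2869 and 1276 (-1.06), and Hmox1 had 16489 and 11902 (-0.36). With normexp 0 NRF2 targets were past 2-fold higher, and with median scaling 0 were past 2-fold lower. In iron and zinc handling, Lcn2 was higher and the zinc importer Slc39a14 lower, with 2162 and 892 (-1.17).

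Glycolysis and HIF-1 target genes ran from -1.30 to 0.97 around a median 0.07 above all genes, with Ankrd37 alone past 2-fold, at 345 with LPS and 129 with LOC1 (-1.30). The activator Pfkfb3 had 12714 and 5989 (-0.97), and the oxidase Ero1a 11218 and 20309 (0.97). With quantile normalization and with the mean of the compared probes 2 genes were lower past 2-fold and the list median fell below that of all genes, at -0.0083 and -0.029 from it, and with normexp 0 genes were past 2-fold. Inflammasome genes had 1 of 18 past 2-fold, Mefv (pyrin), with 145 and 58.2 (-1.20), while Casp1 (0.01), Nlrp3 (0.10) and Gsdmd (0.23) lay near all genes. With median scaling, normexp and the mean of the compared probes 0 genes of this list were past 2-fold lower.

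Several lists had 0 compared genes past 2-fold in either direction. Cx3cr1 of the macrophage identity list could not be compared and was at least 11.9-fold lower with LOC1. Apoptosis regulators were 0.27 above all genes, with Bcl2 (0.69) and Apaf1 (0.62) at one end and Bcl2l11 (-0.79) at the other, and lysosome genes were 0.18 above, with Ctsl (0.73) and Npc2 (0.55) leading. Macrophage identity genes had the same median as all genes to within 0.01, though it was 0.24 lower than all genes with the mean of the compared probes, and the receptor Csf1r had 77805 and 38943 (-0.89), Irf8 had 8073 and 4655 (-0.68) and Spi1, which encodes PU.1, had 2641 and 1699 (-0.52). Oxidative phosphorylation genes ran from -0.17 to 0.45 and cytosolic ribosomal protein genes from -0.06 to 0.17. The reference genes ran from -0.14 to 0.27, with Actb at 0.03, Hprt at -0.01 and Gapdh at 0.26.

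Classes read from gene symbols were set beside the 1.84% higher and 2.81% lower over all genes. Of 228 solute carriers 7 were past 2-fold higher (3.07%) and 8 lower (3.51%), among them Slc28a2, a purine nucleoside carrier, with 1714 with LPS and 3728 with LOC1 (1.23), Slc43a3, with 1007 and 2941 (1.66), and Slc9a9, a sodium proton exchanger, with 3259 and 1342 (-1.17). Of 110 genes whose symbols start with Rab, Arhg or Rgs, 6 were higher (5.45%) and 3 lower (2.73%). Arhgap27 had 70.6 and 274 (2.07), Arhgef39 438 and 96.8 (-2.06) and Rab3il1 2757 and 565 (-2.17, with its other probe at 0.02). Of 333 zinc finger genes 3 were higher (0.90%) and 2 lower (0.60%), and Zfp703, among the higher, had 10553 and 19996 (1.03). Noncoding transcripts had 40 higher (1.49%) and 76 lower (2.84%) of 2676, and Rik clones 19 higher (2.22%) and 39 lower (4.57%) of 854. Of 122 olfactory and vomeronasal receptor genes 5 were higher and 5 lower (4.10% each), and 77.9% of them had an LPS level under -2, against 28.2% of all genes.

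Promoter letters of LPS-responsive factors were counted, on both strands, in 270 promoters of 217 of the 335 higher genes and in 328 promoters of 263 of the 510 lower genes, those with a RefSeq entry. TGANTCA, the site of AP-1, which Fosl1 and Fosl2 help to form, was in 12.2% of the promoters of the higher genes and in 9.76% of those of the lower genes, beside 5.70% over all genes compared and 7.81% over every promoter of the table. GGNNNTTCC, the core of the NF-kB site, was in 20.7% and 21.6%, beside 21.7% over all genes compared and 18.5% over the table. TGACGTCA, the site of CREB, was in 2.22% and 1.22%, beside 2.97% and 1.79%. These shares describe the letters only, with no test, and binding was not measured.

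Genes measured on 1 array only have a bound and not a fold. With LOC1 alone 705 of the 36818 gene names were well above background. Of these, 164 were at least 2-fold over the lowest signal well above background of the LPS array, and 58 at least 4-fold. The LPS array had more of its spots well above background, 53.8% against 52.4%. With LPS alone the counts of genes were 1136, 254 and 70. Among the latter, Cx3cr1, the fractalkine receptor, had 187 with LPS and 9.57 with LOC1, at least 11.9-fold lower, and F13a1, a coagulation factor subunit of macrophages, had 187 and 3.19, also at least 11.9-fold lower. Ppara, the fatty acid-sensing nuclear receptor, had 124 and 3.27, at least 7.88-fold lower. Tnfsf14, which encodes LIGHT, had 185 with LPS and 3.75 with LOC1, at least 11.8-fold lower.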

How the data were processed

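RNA of RAW264.7 macrophages was hybridised by the authors to 1-colour Agilent mouse arrays, 1 per condition. They deposited spot intensity as the processed signal of Feature Extraction (12.0.3.1 in the file headers), background-subtracted and without normalisation across arrays. A table of log2 ratios to a common reference was also deposited, blank under 2-fold, and their submitted notes name limma and R 3.2.5.

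Here non-control spots without an outlier mark on the LPS or LOC1 array were used, with log2 intensity scaled to each array's 75th percentile. Spots of a probe were averaged, a gene took its compared probe with the highest mean level, and the threshold was 2-fold. LOC3 values leave out outlier spots of that array. Coordinates of probes are on mm9, per the file headers. Probes were named by RefSeq accession (33851 of 56605), RefSeq symbol (9809) or synonym (303), and 12642 kept the name of the array. Genes named were the 15 largest differences a direction (brighter level at least -2, probes on the same side of 0, an annotated symbol, outside the study's names), the list members past 2-fold, and up to 3 members of each list with the highest LPS signal. Some of the last are not given, and further list members are named beside them for context, so those were chosen with their values in view. A few genes are counted in their lists and not reported by name. The members, the lists and the rules were chosen with earlier results of these data known.

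The procedure was tested on simulated data. Python 3.11.15, numpy 2.4.6, pandas 2.3.3, matplotlib 3.10.9, R 4.3.3 and limma 3.58.1 (normexp, offset 50) were used. The number of arrays, 1 a side, limits the precision. Alternatives were other scalings, background correction, filters, probe summaries and thresholds.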

Additional observations from a re-analysis of the deposited data

Results flagged for a closer look

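The following 5 genes lie outside the comparison because they were not well above background with LPS alone, yet they were well above it with LOC1 and with LOC3, which share that LPS array. Ifna12, a type I interferon gene, gave a signal of 7.92 (LPS), 378 (LOC1) and 142 (LOC3), at least 25.1-fold higher with LOC1. Cnnm1, a putative magnesium transporter gene, was at least 14.1-fold higher, Fsd1l at least 7.60-fold, the angiotensin receptor gene Agtr1b at least 6.34-fold and Fam228b at least 6.24-fold. Each bound sets the LOC1 level against the dimmest measurable LPS signal, and none has a replicate.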

How the results depend on the processing

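No paired analysis was possible because each condition has 1 array, and for the same reason no array could be left out. Genes at least 2-fold higher and lower with LOC1 numbered 335 and 510. They numbered 652 and 288 with median scaling, 175 and 180 with normexp, and 94 and 108 at 3-fold. In the deposited ratios, over 3186 genes only, they numbered 182 and 168. Without a filter on dim probes they numbered 1441 and 2411. Genes lower numbered 773 where 1 array above background was enough, 921 as probes in place of genes, and 288 where the brighter array reached -2. The other settings left both counts within 1.5 times. Median scaling shifts every gene alike, so it cannot change the list medians relative to all genes. These medians stayed within 0.12 of the values given under quantile normalization, normexp and the mean of the compared probes, with these exceptions. With the mean of the compared probes the interferon-stimulated list was at 0.21, adenosine and eicosanoids at -0.27, alternative activation at -0.62, macrophage identity at -0.24, and nitric oxide, oxidase and arginine enzymes at -0.044, where the sign turned. With normexp alternative activation was at -0.62. Probes of the same gene that disagree have that effect by construction, since the main values use 1 probe a gene. All 30 leading genes stayed past 2-fold. Signal over background limits the comparison to 18177 of 36818 genes.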

Other observations

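Some gene families are given here by value, and they were chosen after their values were seen. Over all genes 1.84% were at least 2-fold higher and 2.81% lower. Of 9 compared Ly6 genes, Ly6a (2.14), Ly6c2 (2.06) and Ly6c1 (2.03) were at least 2-fold higher with LOC1 and 0 were lower. Of 9 Ms4a genes, 5 were higher and 0 lower, with Ms4a7 (2.17) followed by Ms4a6c (1.38), Ms4a6d (1.33), Ms4a14 (1.28) and Ms4a1 (1.06). Of 10 Sprr genes, which lie together in the epidermal cluster, 6 were higher and 0 lower, up to 2.38 for Sprr2h. Both formyl peptide receptors compared, Fpr2 (1.67) and Fpr1 (1.34), were higher. Of 9 Cd300 genes 3 were higher, Cd300ld3 (1.56), Cd300e (1.37) and Cd300c2 (1.03), and Cd300a was lower (-1.05). Of 6 Speer genes 2 were higher and 2 lower, with Speer5-ps1 (-2.66) and Speer4a (-2.14) on the lower side. Of 36 kinesin genes 5 were higher and 5 lower. Kif18a (-1.50), Kif18b (-1.08) and Kifc1 (-1.03), which act in mitosis, were lower with Kif11. Kif5a (1.22) and Kif5c (1.05), which move cargo, were higher, while the brighter Kif5b had 0.14 and Kif3b -0.39. Members of the Ly6, Ms4a6, Sprr2, Cd300 and Speer groups are similar in sequence, and whether their probes tell them apart was not tested.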
